A study of Mus musculus with 4 samples.

Results

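The kinesins are the motor proteins that walk along, or remodel, microtubules. The family was read here from the genes annotated as protein coding whose symbol is Kif followed by a number, with the accessory subunit gene Kifap3 added. This rule found 36 of the 21044 genes in the table of FPKM values (reads scaled by gene length and library size). The family was chosen by the level of Kif3b, which was lower in both knockout libraries than in the controls, so the values of Kif3b between the groups are given as a description and carry no test. Read counts were at hand for 34 members, and 30 passed the filter on low counts and were tested. By the design text the libraries came from microglia isolated from the corpus callosum, the large white matter tract between the hemispheres, of mice at postnatal day 7. The knockouts were Lag3cKO-Cx3 mice with the genotype label ko (cKO, 2 libraries), in which the inhibitory receptor gene Lag3 is conditionally deleted, and the controls were Lag3fl/fl mice with the label wt (WT, 2 libraries), whose floxed Lag3 is intact. The driver is given only as the Cx3 of the name, whether the WT mice carry it is not stated, and the labels do not tell single animals from pools, so p-values reflect no more than the spread among the 4 libraries. Where the WT mice lack the driver, its own effect and that of the deletion cannot be told apart.

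A kinesin has a motor domain that burns ATP to move along a microtubule, and a tail that holds cargo or a partner. Transport kinesins carry vesicles, lysosomes, mitochondria, mRNA and the building blocks of cilia, mostly towards the plus ends of microtubules at the cell edge. Mitotic kinesins build the spindle, move chromosomes and close off the daughter cells, and their genes are switched on in dividing cells. Microglia of the early postnatal white matter are known to divide and to clear debris, tasks that draw on both kinds.

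Total counts were 16770162 and 14645187 in the cKO libraries and 15855913 and 14973059 in the WT libraries. Lag3 had 595 and 257 counts in cKO, against 6064 and 10007 in WT. Cx3cr1, the fractalkine receptor of microglia, was at 3404 and 3034 CPM (counts scaled to library size by TMM) in cKO, against 6443 and 6554 CPM in WT. All 10 microglial markers had counts in every library, with sums of 29829 and 27921 CPM in cKO and 28500 and 31596 CPM in WT. The markers did not move together. Both cKO libraries lay above both WT libraries for 3 (30%), P2ry12, Tmem119 and Aif1. They lay below for 2 (20%), Cx3cr1 and Sall1, and the shares over all genes tested were 15.8% and 20%. Tmem119 was at 773 and 1172 CPM in cKO, against 381 and 541 CPM in WT. The second cKO library stood apart. It had counts for 12787 genes, against 15491 in the first cKO library and 14840 and 15899 in the WT libraries. Counts of 0 were thus more frequent in it across all genes. Its log2 CPM correlated with the other libraries at r = 0.862 to 0.871 across genes, which are not independent replicates, against 0.935 to 0.956 among the other 3. It had 290.4 CPM of Xist and 0 counts of the Y-linked Ddx3y, whereas the first cKO library had 6.97 CPM of Xist and 107 CPM of Ddx3y, and the WT libraries had 0 counts of Xist and 94.7 and 89.1 CPM of Ddx3y.

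Kif5b, the ubiquitous heavy chain of conventional kinesin, had the highest FPKM of the family in every library, and the mitotic motors Kif11, Kif20a and Kif22 came next by the mean over the 4 libraries. The edgeR quasi-likelihood test, with Benjamini-Hochberg adjustment over 13086 genes, called 0 of the 30 members. It called 0 genes in all (0%), with no adjusted p below 0.9997. The deleted gene Lag3 was not called either, at a log2 fold change of -4.35 (standard error 0.52). A missing edgeR call is thus no evidence that a gene was unchanged. At an unadjusted p under 0.05 edgeR gave, apart from Kif3b, 1 of 29 members (3.45%), Kif21a, beside 4.65% of all genes tested. DESeq2 called no member apart from Kif3b, which is past both thresholds by the choice, beside 0.298% of all genes. Both cKO libraries lay above both WT libraries for 7 members (23.3%), beside 15.8% of all genes tested, and below both for 3 members (10%), Kif3b by the choice among them, beside 20%. The 7 were Kif1a, Kif3a, Kif4, Kif9, Kif15, Kif16b and Kif21a, and the 3 were Kif1b, Kif2a and Kif3b. In libraries of many cells, fewer cells of a type and less RNA per cell cannot be told apart. The members split into 11 mitotic kinesins, 15 transport kinesins and 10 ciliary and other kinesins.

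**Figure D1:**
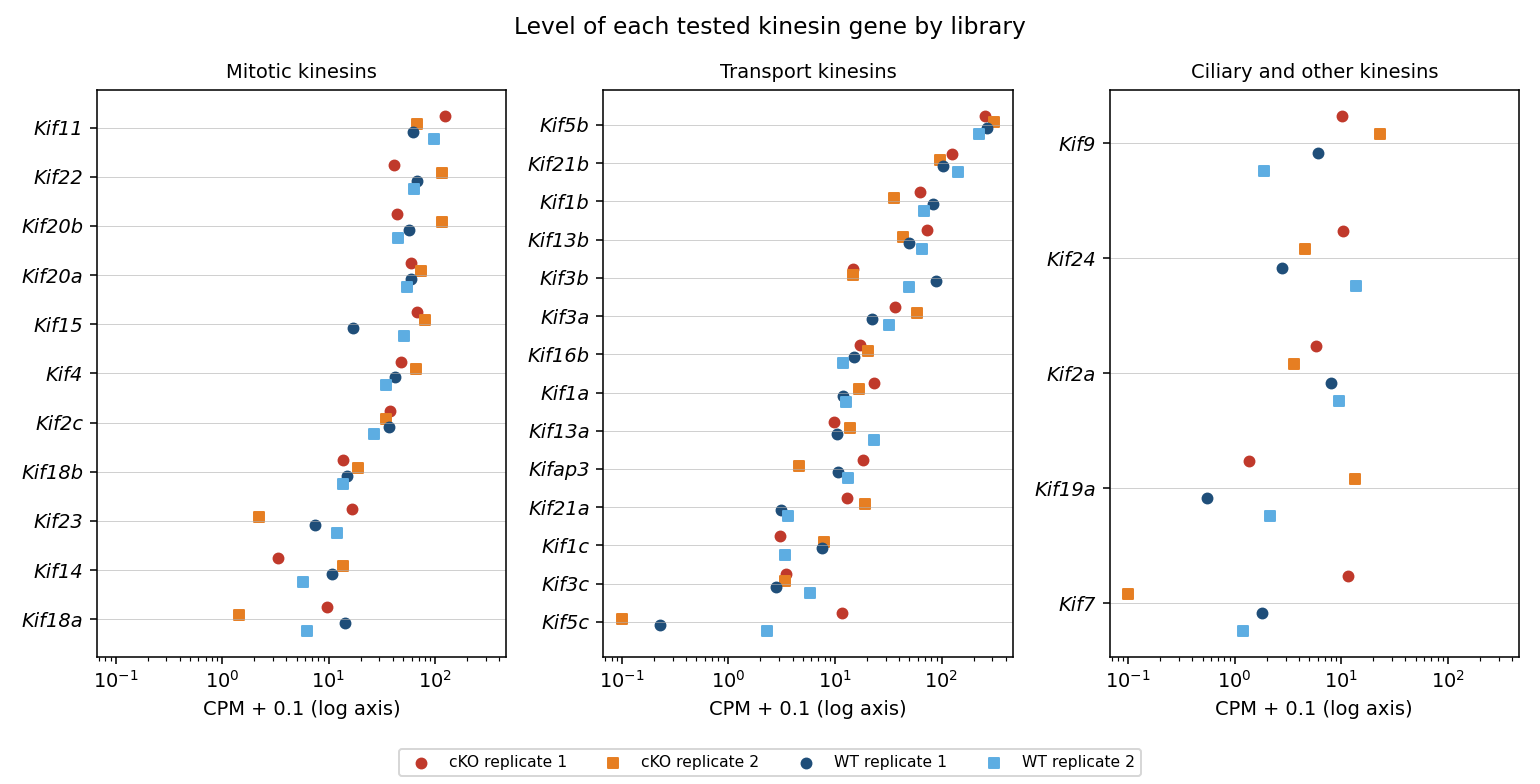
Level of the 30 tested kinesin genes in each of the 4 libraries, as TMM-scaled CPM plus 0.1 on a log axis, with 1 panel per role. Kif3b shows both cKO points (14.6 and 14.6 CPM) left of both WT points, Kif21a shows both cKO points (12.7 and 19.1 CPM) right of both WT points, and the cKO points of Kif5c and Kif7 are far apart because cKO replicate 2 had no counts.

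Heterotrimeric kinesin-2 is the motor that carries cargo into cilia and moves vesicles in the cytoplasm. It pairs the motor subunits encoded by Kif3a and Kif3b, with Kifap3 as the accessory subunit that binds cargo, and the product of Kif3c can take the place of KIF3B. Kif3b (ENSMUSG00000027475, GRCm38 chr2:153291413-153333390, plus strand) had 246 and 219 counts in cKO, against 1401 and 731 in WT. This was 14.6 and 14.6 CPM in cKO, against 89.3 and 49.9 CPM in WT. The cKO libraries had nearly the same level, and both lay below the lower WT library. The group means were 14.6 ± 0.0341 CPM in cKO and 69.6 ± 27.9 CPM in WT (SD, n = 2 each), a log2 fold change of -2.25 (standard error 0.41).

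Kif3a (ENSMUSG00000018395, chr11:53567379-53601967, plus strand), the partner motor, was on the other side. It had 36.1 and 58.5 CPM in cKO, against 22.1 and 31.9 CPM in WT, a log2 fold change of 0.81 (standard error 0.41) that did not pass edgeR. Both cKO libraries were above both WT libraries, and the gap to the nearest WT library was small beside the difference between the cKO libraries. Per length, Kif3a stood at 3.88 and 6.30 times the FPKM of Kif3b in cKO, against 0.389 and 1.00 times in WT. The ratio thus did not overlap between the groups, and it inherits the choice of Kif3b. Kifap3 had 18.2 and 4.47 CPM in cKO, against 10.5 and 13.1 CPM in WT, so that the cKO libraries enclosed the WT libraries. Kif3c was low throughout, with 3.33 and 3.33 CPM in cKO and 2.68 and 5.73 CPM in WT. Antisense genes overlap exons of Kif3c, and whether reads were counted by strand is not stated.

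**Figure D2:**
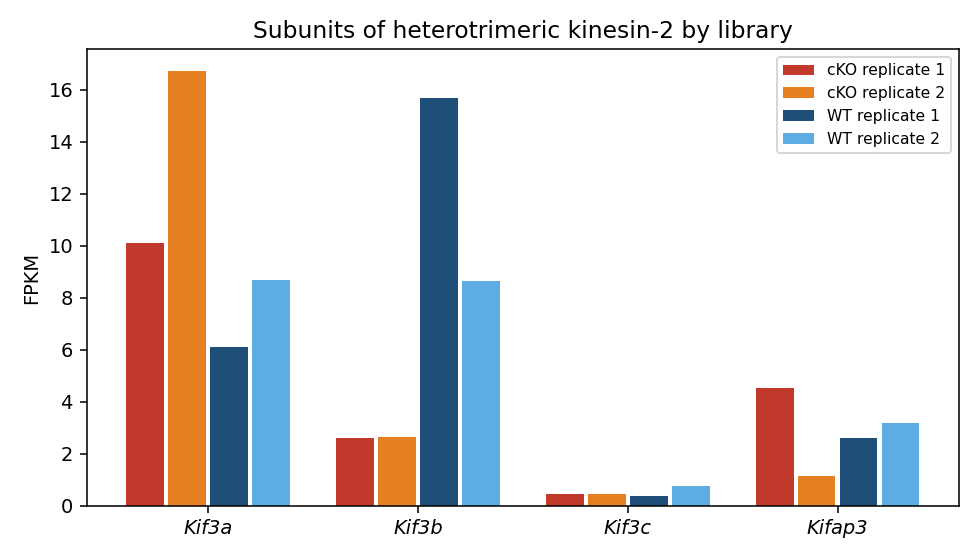
FPKM of the subunit genes of heterotrimeric kinesin-2 in each library, cKO bars left of WT bars for each gene. Kif3b is at 2.60 and 2.65 FPKM in cKO and at 15.7 and 8.66 FPKM in WT, while Kif3a is at 10.1 and 16.7 FPKM in cKO and at 6.10 and 8.70 FPKM in WT.

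The authors' deposited tables compare 1 cKO library with 1 WT library each, so every library stands in 2 of the 4 tables. For Kif3b, the authors' deposited table of cKO replicate 1 over WT replicate 1 gives a fold change of 0.166, and that of cKO replicate 1 over WT replicate 2 gives 0.3005. For cKO replicate 2, the authors' deposited tables give 0.169 over WT replicate 1 and 0.306 over WT replicate 2. The 4 values follow the WT library and hardly the cKO library. For Kif3a, the authors' deposited tables give 1.65 and 1.16 for cKO replicate 1 and 2.74 and 1.92 for cKO replicate 2, over WT replicates 1 and 2 in turn.

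The promoters of the 2 motor subunits are shown because the genes lay on opposite sides of WT. They run from 250 bases before to 50 bases after the RefSeq start and come from RefSeq (GRCm38.p6), chr2:153291166-153291465 for Kif3b and chr11:53567119-53567418 for Kif3a, both on the plus strand. Capitals mark a repeated stretch in Kif3b and the reverse complement of CCAAT in Kif3a.
Kif3b: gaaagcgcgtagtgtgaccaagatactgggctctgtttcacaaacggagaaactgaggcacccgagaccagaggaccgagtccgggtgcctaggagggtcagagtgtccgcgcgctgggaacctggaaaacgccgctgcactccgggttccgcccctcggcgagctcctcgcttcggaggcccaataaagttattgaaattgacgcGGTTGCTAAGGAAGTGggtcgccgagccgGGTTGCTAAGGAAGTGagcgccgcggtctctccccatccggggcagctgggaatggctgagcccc
Kif3a: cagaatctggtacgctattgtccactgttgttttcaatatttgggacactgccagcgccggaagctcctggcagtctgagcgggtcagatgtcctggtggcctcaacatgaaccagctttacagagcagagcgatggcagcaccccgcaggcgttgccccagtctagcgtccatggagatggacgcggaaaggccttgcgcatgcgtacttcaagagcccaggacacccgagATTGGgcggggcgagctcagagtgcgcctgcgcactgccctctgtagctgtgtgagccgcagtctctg
The stretch GGTTGCTAAGGAAGTG occurs in Kif3b at -44 to -29 and again at -15 to 1, counted from the RefSeq start with no position 0. It was noticed after the sequence was seen. A stretch of 16 bases or more that is repeated without overlap is found in 2.4% of 32851 promoters, the Kif2a promoter among them. CCAAT, read on both strands, lies at -69 to -65 in Kif3b and at -18 to -14 in Kif3a, and 37.4% of all promoters hold it. These matches are letters in a window and say nothing about binding.

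Kinesin-1 moves mitochondria, lysosomes and vesicles, and its heavy chains are encoded by Kif5a, Kif5b and Kif5c. Kif5b was at 256 and 311 CPM in cKO, against 264 and 224 CPM in WT. The groups overlapped, and the log2 fold change was 0.22 (standard error 0.19). Per length, Kif5b made up 19.8% and 20.7% of the summed FPKM of the family in cKO, against 22.0% and 18.8% in WT. Antisense genes overlap its exons too. Kif5a and Kif5c are the neuronal heavy chains. Kif5a had 0 counts in both cKO libraries, against 6 and 9 counts in WT. The WT mean was 2.63 times the level of 3 counts per cKO library, taken as the floor. The WT mean itself rests on few counts, so this ratio is no firm bound. Kif5c had 192 and 0 counts in cKO, against 2 and 32 in WT, so that single libraries set its level.

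Neuronal markers were few. Of 10, 7 had counts, and they summed to 25.9 and 63.5 CPM in cKO and to 19.1 and 29.6 CPM in WT. Map2, which binds microtubules in dendrites, held the largest part, with 14.1 and 53.9 CPM in cKO and 5.55 and 11.4 CPM in WT. The number of these 7 with no count was 2 and 5 in the cKO libraries and 1 and 0 in the WT libraries, and Gap43, a gene of growing axons, had none in either cKO library. The part of such cells in the counts of Kif5a and Kif5c was not tested.

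Kinesin-3 motors are the long-range carriers of vesicles and endosomes. Kif1b, a carrier of vesicle precursors, mitochondria and lysosomes, was at 62.8 and 36.0 CPM in cKO, against 82.9 and 67.7 CPM in WT. Both cKO libraries were below both WT libraries, by little in cKO replicate 1, and the log2 fold change was -0.61 (standard error 0.37). Kif13b, which binds the scaffold protein DLG1, was at 72.5 and 43.5 CPM in cKO, against 49.7 and 65.7 CPM in WT. Kif16b, whose product holds early endosomes through their lipid, was at 17.1 and 20.5 CPM in cKO, against 14.9 and 11.7 CPM in WT. The groups overlapped for Kif13b, and Kif16b was slightly above WT in both cKO libraries. Kif1a, best known for moving synaptic vesicle precursors in axons, was at 22.9 and 16.5 CPM in cKO, against 11.7 and 12.7 CPM in WT, with a log2 fold change of 0.69 (standard error 0.46). Kif13a, a carrier of mannose-6-phosphate receptors, was at 9.65 and 13.6 CPM in cKO, against 10.4 and 23.2 CPM in WT. Kif1c, known for its part in podosomes of macrophages, was at 2.98 and 7.87 CPM in cKO, against 7.46 and 3.28 CPM in WT. The groups overlapped for Kif13a and Kif1c and were apart for Kif1a.

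The kinesin-4 pair Kif21a and Kif21b encodes motors that also slow the growth of microtubules, and altered human KIF21A causes a congenital eye movement disorder. Kif21a (ENSMUSG00000022629, chr15:90933276-91049948, minus strand) had 214 and 286 counts in cKO, against 47 and 52 in WT. This was 12.7 and 19.1 CPM in cKO, against 2.997 and 3.55 CPM in WT. The WT libraries were close to each other, and both cKO libraries were far above them. The means were 15.9 ± 4.47 CPM in cKO and 3.27 ± 0.39 CPM in WT (SD, n = 2 each), a log2 fold change of 2.28 (standard error 0.65) that did not pass the edgeR test over all genes (adjusted p = 0.9997). The authors' deposited tables give fold changes of 4.30 and 3.67 for cKO replicate 1 and of 6.59 and 5.62 for cKO replicate 2, over WT replicates 1 and 2 in turn. Kif21b was at 124 and 96.7 CPM in cKO, against 104 and 143 CPM in WT, and the groups overlapped. Its FPKM was above that of Kif21a in every library, with 10.2 and 8.13 FPKM of Kif21b beside 1.97 and 3.02 FPKM of Kif21a in cKO, and 8.44 and 11.5 FPKM beside 0.458 and 0.536 FPKM in WT. All 10 astrocyte markers had counts, and for 6 of the 9 tested (66.7%) both cKO libraries were above both WT libraries, beside 15.8% of all genes tested. They summed to 239 and 525 CPM in cKO and to 226 and 183 CPM in WT. Gfap overlapped, with 82.3 and 201 CPM in cKO and 141 and 89.4 CPM in WT. S100b, which was not tested, was lower in cKO with 0.0596 and 0 CPM, against 0.574 and 0.751 CPM in WT, and Fgfr3 was at 0 in WT replicate 2. By FPKM the sum in cKO replicate 1 (43.0) lay between those of WT (48.0 and 35.6). The part of astrocytes in the Kif21a counts was not tested.

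**Figure D3:**
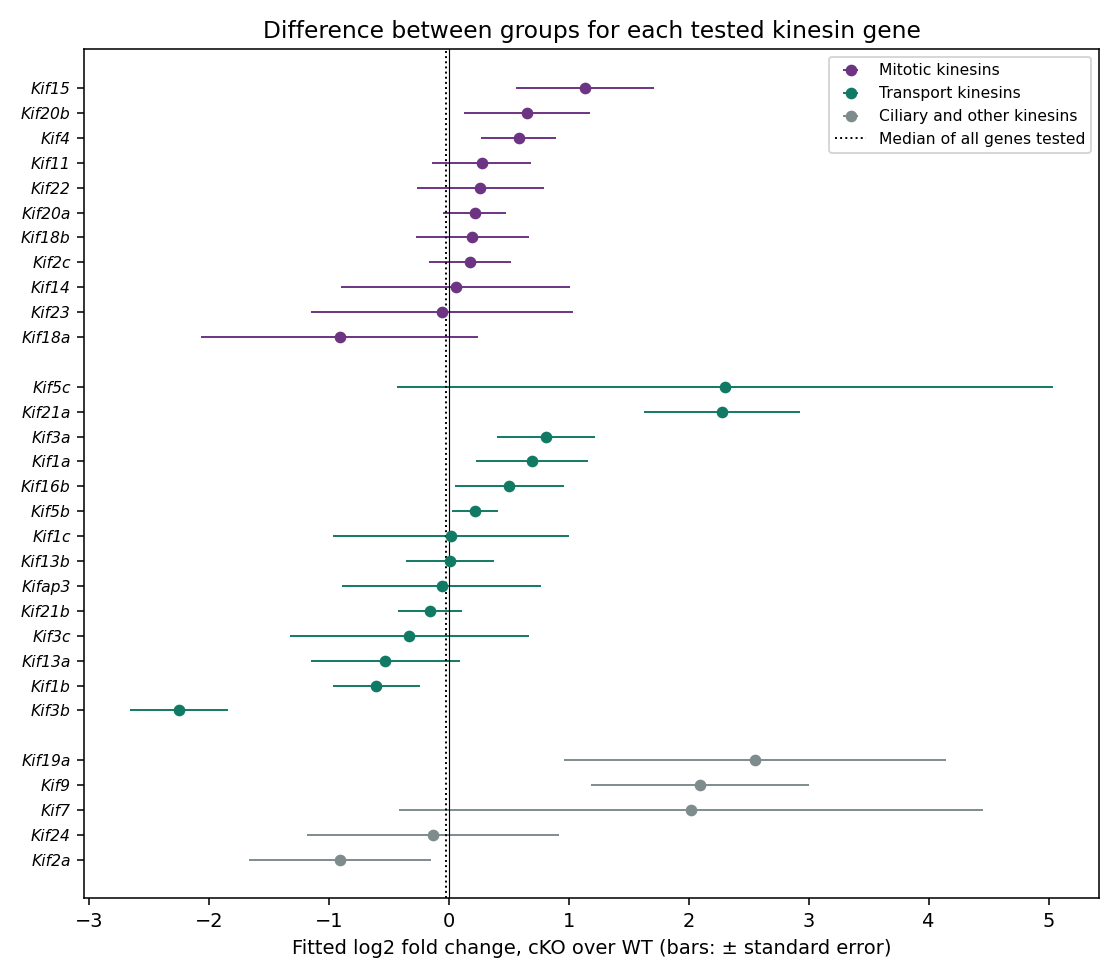
Fitted log2 fold change (cKO over WT, with 2 libraries in each group) of the 30 tested kinesin genes by role, with bars of 1 standard error and the median of all genes tested (-0.027) as a dotted line. Kif3b (-2.25) lies at the low end, Kif19a, Kif5c, Kif21a, Kif9 and Kif7 lie above 2, and the bars of Kif5c and Kif7 reach across 0.

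The mitotic kinesins did not form 1 block. Of the 11, edgeR and DESeq2 called 0, and 9 were fitted higher and 2 lower in cKO. Over all 13086 genes tested, 6312 were fitted higher and 6774 lower. The median log2 fold change was 0.22, beside -0.027 over all genes tested, and leaving out cKO replicate 2 took it to 0.046. All 11 had a mean over the libraries of at least 5 CPM.

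Spindle assembly rests on Kif11, whose motor pushes the poles apart, and on Kif15, which can stand in for it. Kif11 was at 125 and 67.2 CPM in cKO, against 62.1 and 96.7 CPM in WT, and the groups overlapped. Kif15 (ENSMUSG00000036768, chr9:122951046-123018733, plus strand) was at 67.5 and 79.7 CPM in cKO, against 16.8 and 50.4 CPM in WT. For Kif15 both cKO libraries were above both WT libraries, the WT libraries differed more from each other than the cKO libraries did, and the log2 fold change was 1.13 (standard error 0.58). Kif2c, a depolymerase that corrects wrong attachments of chromosomes, was at 37.4 and 34.5 CPM in cKO, against 37.1 and 26.7 CPM in WT. Kif18b, which acts with it on astral microtubules, was at 13.6 and 18.9 CPM in cKO, against 14.8 and 13.7 CPM in WT. The groups overlapped for both.

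Chromosome motors gave a mixed picture. Kif4, which shapes chromosomes and the central spindle, was at 48.2 and 65.5 CPM in cKO, against 41.5 and 34.5 CPM in WT. It lies on the X chromosome, the libraries differed in Xist and Ddx3y as given above, and it shares exon sequence with Pdzd11 on the other strand. Its log2 fold change was 0.58 (standard error 0.31). Kif22, which pushes chromosome arms from the poles, was at 40.7 and 115 CPM in cKO, against 66.8 and 62.9 CPM in WT. Kif18a, which damps the swings of chromosomes, was at 9.53 and 1.33 CPM in cKO, against 14.3 and 6.21 CPM in WT. The cKO libraries thus lay on both sides of WT for Kif22, and for Kif18a the second cKO library was the lowest of the 4. Exons of Kif22 and Kif18a overlap genes on the other strand.

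The motors of cell division's last steps differed from one another in cKO replicate 2. Kif20a, which brings Aurora B to the midzone, was at 58.6 and 73.2 CPM in cKO, against 59.2 and 54.3 CPM in WT. Kif20b, needed for the final cut between daughter cells, was at 43.6 and 116 CPM in cKO, against 57.0 and 45.0 CPM in WT. Kif23, the motor of the centralspindlin complex, was at 16.3 and 2.13 CPM in cKO, against 7.27 and 11.9 CPM in WT. In cKO replicate 2, Kif20b was thus the highest of the 4 libraries and Kif23 the lowest. Kif14, which works in the same ring of furrow and midbody, was at 3.28 and 13.7 CPM in cKO, against 10.7 and 5.597 CPM in WT. Exons of Kif20a overlap Cdc23 on the other strand.

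TTTGAA is the core of the cell cycle genes homology region, the element through which cell cycle genes are held silent in resting cells. Of the 36 members, 30 had a promoter in the RefSeq table, and TTTGAA was searched on both strands. It was found for 9 of 10 mitotic kinesins (90%), 1 of 11 transport kinesins (9.09%) and 2 of 9 ciliary and other kinesins (22.2%), beside 17.9% of 32851 promoters. Within 25 bases of the start it was found for 7 of the mitotic kinesins and 0 of the transport kinesins, beside 2.46% of all promoters, a window set after the positions were seen. Positions are counted from the RefSeq start, which for these 7 lay between 25 bases upstream (Kif23) and 328 bases downstream (Kif4) of the gene start in the annotation, so the count within 25 bases holds for RefSeq starts. The 7 are shown from 60 bases before to 50 bases after that start, with TTTGAA or its reverse complement TTCAAA in capitals.
Kif4: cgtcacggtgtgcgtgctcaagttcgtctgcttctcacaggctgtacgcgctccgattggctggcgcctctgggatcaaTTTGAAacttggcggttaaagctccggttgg
Kif11: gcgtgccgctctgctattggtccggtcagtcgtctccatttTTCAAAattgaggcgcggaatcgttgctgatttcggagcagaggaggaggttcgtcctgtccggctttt
Kif15: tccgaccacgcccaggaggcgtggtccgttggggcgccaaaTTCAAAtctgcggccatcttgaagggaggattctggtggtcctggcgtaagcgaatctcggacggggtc
Kif22: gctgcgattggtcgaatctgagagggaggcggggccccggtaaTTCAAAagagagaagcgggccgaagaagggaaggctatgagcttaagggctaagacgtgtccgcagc
Kif23: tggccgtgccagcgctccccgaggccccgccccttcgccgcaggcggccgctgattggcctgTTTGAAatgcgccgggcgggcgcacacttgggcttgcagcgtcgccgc
Kif20b: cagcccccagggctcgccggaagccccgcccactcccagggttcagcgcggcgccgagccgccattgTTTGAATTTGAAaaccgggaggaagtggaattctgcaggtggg
Kif18b: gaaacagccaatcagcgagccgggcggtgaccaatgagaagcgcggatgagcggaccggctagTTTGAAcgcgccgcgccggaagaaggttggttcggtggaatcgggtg
Kif20b holds the motif end to end with a second copy. The positions are chrX:100626005-100626114 on the plus strand for Kif4, chr19:37376322-37376431 on the plus strand for Kif11, chr9:122951021-122951130 on the plus strand for Kif15, chr7:127042371-127042480 on the minus strand for Kif22, chr9:61946750-61946859 on the minus strand for Kif23, chr19:34922298-34922407 on the plus strand for Kif20b and chr11:102925075-102925184 on the minus strand for Kif18b. Kif18a was the mitotic kinesin with a promoter but without the motif in this window. Of the 9 mitotic kinesins with the motif, 8 were fitted higher in cKO and 1, Kif23, lower. Over all 13086 genes tested, 6312 were fitted higher and 6774 lower. Both cKO libraries lay above both WT libraries for 2 of the 9, Kif4 and Kif15, as they did for 15.8% of all genes tested. A link between the motif and the direction was not tested.

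Mitotic kinesins were set against transport kinesins. The median log2 fold change was 0.22 over 11 mitotic kinesins and 0.010 over the 14 transport kinesins tested, a difference of 0.21. The 14 include Kif3b, whose low level in cKO chose the family, and without it the median over 13 was 0.014. The medians given below with a library left out still include Kif3b. Without cKO replicate 2 the difference was -0.15, and without cKO replicate 1 it was 0.73. Without WT replicate 1 the difference was 0.22, and without WT replicate 2 it was 0.023. The order of the medians thus turned without cKO replicate 2 and nearly vanished without WT replicate 2. Leaving out cKO replicate 2 put the transport median at 0.20, and leaving out cKO replicate 1 put it at -0.32. Kif3b alone moves the shares of the family's summed FPKM, so they are given without it. Mitotic kinesins then made up 50.1% and 53.6% in cKO, against 51.4% and 50.5% in WT, and the groups overlapped. Transport kinesins made up 45.7% and 41.5% in cKO, against 46.3% and 46.5% in WT. The FPKM sums without Kif3b were higher in cKO for both kinds. Mitotic kinesins summed to 86.5 and 110.0 FPKM in cKO, against 74.6 and 75.4 FPKM in WT, and transport kinesins to 78.9 and 85.2 FPKM in cKO, against 67.1 and 69.5 FPKM in WT. With Kif3b, the transport sums overlapped, at 81.5 and 87.8 FPKM in cKO and 82.8 and 78.2 FPKM in WT. Of the 13 transport kinesins tested other than Kif3b, 4 had both cKO libraries above both WT libraries (30.8%) and 1 had them below (7.69%), beside 15.8% and 20% of all genes tested.

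The 2 libraries of a group also differed for many members. For mitotic kinesins, the log2 ratio of replicate 2 over replicate 1 had an SD across genes of 1.60 in cKO and 0.78 in WT. For transport kinesins it was 1.99 in cKO and 1.08 in WT. Over all genes tested it was 2.23 in cKO and 1.23 in WT, so the wider spread of the cKO libraries was not found in kinesins alone.

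**Figure D4:**
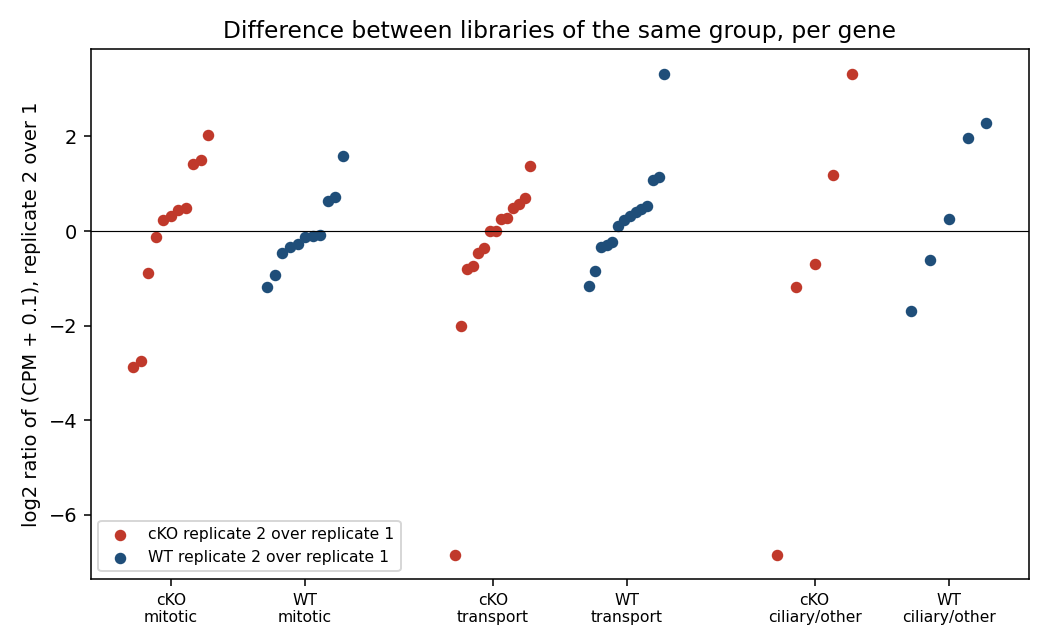
log2 ratio of (CPM + 0.1) in replicate 2 over replicate 1 of the same group for each tested kinesin gene, by role, with cKO points left of WT points. Mitotic kinesins spread with an SD of 1.60 in cKO and 0.78 in WT, and the lowest cKO points are Kif5c and Kif7, which had no counts in cKO replicate 2.

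Ciliary and other kinesins were low. Kif9 and Kif19a serve motile cilia, and in mouse the product of Kif19a sets their length. Kif9 was at 10.1 and 22.9 CPM in cKO, against 5.93 and 1.77 CPM in WT, and both cKO libraries were above both WT libraries. Its log2 fold change was 2.09 (standard error 0.91). Kif19a was at 1.25 and 13.5 CPM in cKO, against 0.446 and 2.05 CPM in WT, and the cKO libraries enclosed the higher WT library. Of 8 markers of ciliated ependymal cells, 7 had counts and summed to 7.68 and 15.1 CPM in cKO and to 2.23 and 1.43 CPM in WT. Of these 7, 3 and 2 had no count in the cKO libraries and 4 and 3 had none in the WT libraries, and single genes carried the cKO sums. Hydin had 5.18 CPM in cKO replicate 1 and 0 in cKO replicate 2, and Ccdc153 had 7.33 CPM in cKO replicate 2 and 0 in the other 3 libraries. Foxj1, the master regulator of motile cilia, overlapped, with 0.536 and 2.47 CPM in cKO and 1.47 and 0.41 CPM in WT. The part of such cells in the counts of Kif9 and Kif19a was not tested.

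Kif2a, a depolymerase of neurites and spindle poles, was at 5.72 and 3.47 CPM in cKO, against 7.84 and 9.42 CPM in WT, with a log2 fold change of -0.91 (standard error 0.76), and its exons overlap Dimt1 on the other strand. Both cKO libraries were below both WT libraries. Despite its part at spindle poles Kif2a was listed here, so the counts and median of mitotic kinesins leave it out and depend on that choice. Kif24, which keeps centrioles from growing cilia, was at 10.2 and 4.47 CPM in cKO, against 2.68 and 13.5 CPM in WT. Kif7, a brake and organiser of Hedgehog signalling at the cilium tip, had 192 and 0 counts in cKO, against 27 and 16 in WT, and its exons overlap Ticrr on the other strand. Kif24 overlapped between the groups, and Kif7 was both highest and lowest in cKO. Kif26a, Kif26b and Kif27 were not tested, with at most 1, 7 and 17 counts in any library. Kif6 and Kif12 had no counts to use and no more than 0.0444 FPKM.

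Partners and relatives of the members were read from lists by counts alone. Of kinesin family genes outside the naming pattern, 9 were tested, 0 were called, and both cKO libraries lay above both WT libraries for 2 (22.2%) and below them for 2 (22.2%), near the 15.8% and 20% of all genes tested. Cenpe, the mitotic kinesin-7, was at 128 and 223 CPM in cKO, against 68.2 and 99.0 CPM in WT. The light chain gene Klc4 was at 87.4 and 51.1 CPM in cKO, against 96.7 and 96.7 CPM in WT. Klc2, another light chain gene, was at 0.596 and 0.0667 CPM in cKO, against 1.21 and 1.91 CPM in WT. Cenpe was above and Klc4 and Klc2 were below WT in both cKO libraries. Kifc1, a minus-end motor that focuses spindle poles, was at 18.3 and 45.1 CPM in cKO, against 20.8 and 17.3 CPM in WT, and its counts may be shared with the like gene Kifc5b.

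For the 36 mitotic genes other than kinesins the median log2 fold change was 0.49. Both cKO libraries exceeded both WT libraries for 18 of them (50%) and were below both for 0, beside 15.8% and 20% of all genes tested, and 0 were called. They summed to 2187 and 3221 CPM in cKO and to 2032 and 1966 CPM in WT. Prc1, the bundler of the central spindle that Kif4 binds, was at 54.5 and 83.1 CPM in cKO, against 32.4 and 36.7 CPM in WT. Aurkb, the kinase that Kif20a carries, was at 93.0 and 200.4 CPM in cKO, against 64.0 and 74.5 CPM in WT. Hmmr and Aspm, both of spindle poles, had log2 fold changes of 0.82 and 1.00. The kinesins of mitosis had 2 of 11 members above both WT libraries, Kif4 and Kif15, where this list had 18 of 36, and these shares were not tested against each other. Without cKO replicate 2 the median of the list was 0.19.

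Intraflagellar transport genes, whose products ride on kinesin-2 in cilia, had a median of -0.17 over 24 genes and 0 called. Both cKO libraries were below both WT libraries for 5 (20.8%) and above for 2 (8.33%), beside 20% and 15.8% of all genes tested, so the count below both is at the background. Of the 24, 17 were fitted lower and 7 higher, beside 6774 lower and 6312 higher of all 13086 genes tested. With each library left out the median was -0.26 to -0.12, beside -0.15 to -0.0071 over all genes tested. Ift172 was at 11.4 and 5.40 CPM in cKO, against 21.7 and 43.9 CPM in WT, a log2 fold change of -1.97 (standard error 0.63). Wdr35 was at 5.06 and 1.20 CPM in cKO, against 8.42 and 9.42 CPM in WT. Ift27 was at 25.4 and 27.5 CPM in cKO, against 15.0 and 19.6 CPM in WT. The first 2 were below and Ift27 above WT in both cKO libraries, and Dync2h1 of the return motor overlapped, with 13.0 and 32.7 CPM in cKO and 14.7 and 11.7 CPM in WT.

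Dynein and dynactin, the machinery of transport towards the minus end, had a median of -0.22 over 21 genes, with 5 below (23.8%) and 3 above both WT libraries (14.3%), near the 20% and 15.8% of all genes tested, and 0 called. Without cKO replicate 2 the median was 0.074. Bicd2, which links dynein to cargo, was at 29.1 and 24.3 CPM in cKO, against 39.2 and 50.2 CPM in WT. Dctn2 and Actr1b of dynactin and Dync1i2 of dynein had log2 fold changes of -0.50, 0.38 and 0.31. Kinesin adaptors had a median of 0.087 over 15 genes, with 2 below (13.3%) and 1 above both WT libraries (6.67%), under the 20% and 15.8% of all genes, and 0 called. Leaving out cKO replicate 1 or 2 turned the median to -0.032 or -0.024. The 1 above was Mapk8ip1, a kinesin-1 scaffold, with 1.31 and 7.40 CPM in cKO and 0 counts in both WT libraries. Apba1, Lin7c and Plekhm2 had log2 fold changes of 2.24, -0.29 and -0.56 (standard errors 1.41, 0.18 and 0.42). The groups overlapped for Apba1 and Plekhm2. Tubulins had a median of -0.0064 over 12 genes, with 2 above (16.7%), 2 below (16.7%) and 0 called, beside 15.8% and 20% of all genes. Without cKO replicate 2 the median was 0.080. Tuba1b was at 437 and 350 CPM in cKO, against 481 and 507 CPM in WT. Tubb3, Tubb6 and Tubb4a had log2 fold changes of 2.17, 0.65 and 1.07 (standard errors 1.25, 0.48 and 0.81), and the groups overlapped for Tubb6. Oligodendrocyte lineage markers summed to 212 and 139 CPM in cKO and to 132 and 137 CPM in WT. Those of endothelium and pericytes summed to 30.5 and 22.5 CPM in cKO and to 23.2 and 19.0 CPM in WT. Of the 7 such markers with counts, 1 and 5 had none in the cKO libraries and 2 and 0 had none in the WT libraries. Pecam1 alone held 21.6 CPM of the sum in cKO replicate 2. Markers of neutrophils and monocytes summed to 24.95 and 140.4 CPM in cKO and to 18.4 and 13.7 CPM in WT. Ngp and Ltf held 41.7 and 42.1 CPM of the sum in cKO replicate 2, and Ltf had 0 in cKO replicate 1. For 3 of the 7 tested (42.9%), Ccr2, Cxcr2 and Ngp, both cKO libraries were above both WT libraries. For 0 they were below, beside 15.8% and 20% of all genes tested. Cxcr2 was at 10.4 and 16.8 CPM in cKO, against 2.36 and 2.87 CPM in WT.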

How the data were processed

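HTSeq 0.6.0, TopHat2 2.0.12, Bowtie2 2.2.3 and the build mm9 are listed in the submitters' processing notes, without settings or strand. Yet positions of genes in the deposited files equalled those of GENCODE M21 on GRCm38 for 35 of 36 members and are given as GRCm38. The authors deposited FPKM values and 4 tables, each with read counts per gene of 1 cKO and 1 WT library, per the file headers. These deposited tables also hold a normalized signal, a p-value, a fold change ratio and its log2, from a test that the sources used here do not give.

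Counts of 18459 genes were joined. For 4315 of 73836 cells missing from the tables, the count was recovered from FPKM, all 4315 whole within 1e-06 and at most 4. The main test was edgeR 4.0.16 in R 4.3.3 (TMM, filterByExpr, quasi-likelihood, adjusted p under 0.05 over 13086 genes), tested on simulated data first. The simulation gave every gene and library the same spread beyond counting error, unlike the real libraries. It therefore does not show how the test performs on them. Standard errors were derived from F. CPM values are scaled by TMM. Members were named one by one, with values per library at a mean of at least 5 CPM, and list genes by the smallest p, up to 4. Exons of 12 members overlap another gene. Replicate numbers mark no shared origin in the labels. Alternatives were DESeq2 1.42.0, limma 3.58.1 on log2(FPKM + 1) and log2(FPKM + 0.1) at 0.5 FPKM in 2 libraries, other scalings and filters, a replicate block and leaving out each library. The members and lists were chosen with earlier results of these data known. The floor used for Kif5a covers counting error in the cKO libraries only.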

Additional observations from a re-analysis of the deposited data

How the results depend on the processing

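The alternatives were planned. edgeR called 0 genes and 0 members under the replicate block, 2 other filters and 2 other scalings, as did limma with both pseudocounts. The FPKM filter of limma left out Kif3c, Kif5c, Kif7 and Kif19a, so limma gives nothing on these members. DESeq2 called 39 genes and 1 member, Kif3b, whose difference chose the family and is no test of it. Leaving out each library gave 0 to 748 genes, the highest without cKO replicate 1 (the single cKO library left is then taken to have the spread of WT), and 0 members. The median was 0.046 to 0.41 for mitotic kinesins, -0.32 to 0.20 for transport kinesins (Kif3b included) and -0.15 to 0.73 for the difference. Deviations of libraries with the same number were not related (-0.017 across genes). The replicate block turned Kif13b (-0.026), Kif14 (-0.21), Kif1c (-0.031), Kif24 (0.16) and Kif7 (-0.90), limma with a pseudocount of 0.1 turned Kif14 (-0.11) and Kif24 (0.15), and with 1 Kif24 (0.011). The cause was not tested. Of 30 members, 14 kept their direction when each library was left out. The ranges of the other 16 were -0.24 to 0.65 for Kif11, -1.01 to 0.15 for Kif13a, -0.41 to 0.33 for Kif13b, -1.31 to 0.74 for Kif14, -0.067 to 0.41 for Kif18b, -0.85 to 0.71 for Kif1c, -0.23 to 1.19 for Kif20b, -0.38 to 0.080 for Kif21b, -0.67 to 0.82 for Kif22, -2.17 to 0.76 for Kif23, -0.88 to 1.45 for Kif24, -0.054 to 0.42 for Kif2c, -0.79 to 0.31 for Kif3c, -7.13 to 5.40 for Kif5c, -7.42 to 3.01 for Kif7 and -1.40 to 0.62 for Kifap3. Depth limits what can be said of Kif5a, Kif26a, Kif26b and Kif27, whose counts were too low to test.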
